A study of Mus musculus with 6 samples.

Results

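The 57 genes described here encode homeodomain and paired-domain transcription factors that lie outside the Hox clusters: the Irx, Lhx, Dlx and Pax families, 6 of the Nkx genes, the sine oculis-related genes Six2 to Six6, and the engrailed, Bar, Hmx, goosecoid, Otx, Pitx, Msx and Emx genes. They were chosen by name from 21887 protein-coding mouse genes, and all 57 were matched in RefSeq annotation of GRCm38.p6 (mm10 coordinates). A gene counted as holding a peak when a listed peak overlapped its body or the 10 kb on either side of it. Of the 57 genes, 46 held a peak in at least 1 list, against 26% of all protein-coding genes, and 11 held none.

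The peaks come from methyl-CpG immunoprecipitation sequencing of I/11 cells, a line of erythroblasts made from fetal liver of p53-deficient mice at embryonic day E12.5. In this assay a methyl-CpG binding protein joined to an antibody tail (MBD2-Fc) captures methylated stretches with many CpG dinucleotides. All cells had been infected with lentivirus and selected with puromycin, and those used here carried hairpin 133 or hairpin 14, both directed at Plcg1. That gene encodes phospholipase C gamma 1, a signalling enzyme downstream of the erythropoietin receptor. They were taken after 24 h in differentiation medium with 10 U/ml erythropoietin (96 h after infection), or at 0 h (72 h after infection), when they had been kept in expansion medium with 1 U/ml erythropoietin, stem cell factor and dexamethasone. There was 1 library for each hairpin and time, so the study gives no replicate check for any difference below and no test was made. The 2 libraries with a scrambled hairpin were not analysed here, and all groups come from 1 p53-deficient line, in which the knockdown was not measured by this assay.

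The deposited lists held 2960 peaks with hairpin 133 and 2666 with hairpin 14 at 24 h, against 3900 and 3437 at 0 h. A peak is a stretch of 151 bp with no height, strand or score, and whether it marks a gain or a loss relative to the scrambled hairpin was not stated in the material used here. Listed means only that a region stands in a library's list. Depth is unknown for these lists, and a gene without a peak may still be methylated. DNA came from whole cultures, in which a change in the share of cells and a change in every cell cannot be told apart. The lists do not measure RNA and cannot check the cell type. Of the erythroblast genes examined, Gata1, Klf1, Epor, Tfrc, Slc4a1, Alas2, Hba-a1 and Hbb-bt had 0 peaks in every list, and Kit, the stem cell factor receptor, had 2 with hairpin 133 and 0 with hairpin 14 at 24 h, against 1 and 0 at 0 h.

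Homeodomain proteins bind short AT-rich sites through a helix-turn-helix fold, and Pax proteins carry a paired domain in addition or in its place. They set the identity of regions and cell types in the embryo, chiefly in brain, sense organs, heart, kidney, limb and pancreas, and most are silent in blood cells. Their start sites commonly lie in broad CpG islands that Polycomb proteins hold silent where the gene is not in use, and such islands are known to gain DNA methylation in many cultured and malignant cells.

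RefSeq gave 57 promoter windows for 44 of the genes, each from 250 bases before a start to 50 after it. A listed peak overlapped 8 of these windows. The genes were Gsc2, Lhx1, Lhx6, Nkx2-5, Pax2, Pax6, Pax7 and Six6. Stretches of 6 of them are printed because they are the DNA under peaks that both hairpins shared within a promoter window. They are given on the sense strand, 5′ to 3′, with each CpG in capitals. The window of Nkx6-1, which has the most CpG among members without a peak, follows as a contrast.
Lhx1, chr11:84525610-84525762, minus strand: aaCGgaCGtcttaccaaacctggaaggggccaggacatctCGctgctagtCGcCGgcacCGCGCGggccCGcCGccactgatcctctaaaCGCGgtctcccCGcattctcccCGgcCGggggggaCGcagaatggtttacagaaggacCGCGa
Lhx1, chr11:84525485-84525544, minus strand: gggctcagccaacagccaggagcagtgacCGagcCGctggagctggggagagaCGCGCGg
Gsc2, chr16:17914978-17915073, minus strand: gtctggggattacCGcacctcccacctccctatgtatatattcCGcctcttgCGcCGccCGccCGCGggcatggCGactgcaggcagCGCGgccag
Pax6, chr2:105682215-105682365, plus strand: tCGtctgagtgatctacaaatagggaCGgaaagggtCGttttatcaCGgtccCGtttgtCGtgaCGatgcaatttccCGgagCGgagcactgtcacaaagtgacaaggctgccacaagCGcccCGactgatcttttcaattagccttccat
Lhx6, chr2:36105489-36105639, minus strand: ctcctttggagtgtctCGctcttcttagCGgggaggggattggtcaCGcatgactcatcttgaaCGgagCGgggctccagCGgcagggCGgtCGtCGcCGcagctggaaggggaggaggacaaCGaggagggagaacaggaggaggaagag
Six6, chr12:72939632-72939747, plus strand: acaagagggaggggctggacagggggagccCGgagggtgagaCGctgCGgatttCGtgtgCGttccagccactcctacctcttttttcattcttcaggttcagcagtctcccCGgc
Pax7, chr4:139832919-139832961, minus strand: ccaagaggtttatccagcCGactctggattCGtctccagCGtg
Nkx6-1, chr5:101664662-101664961, minus strand: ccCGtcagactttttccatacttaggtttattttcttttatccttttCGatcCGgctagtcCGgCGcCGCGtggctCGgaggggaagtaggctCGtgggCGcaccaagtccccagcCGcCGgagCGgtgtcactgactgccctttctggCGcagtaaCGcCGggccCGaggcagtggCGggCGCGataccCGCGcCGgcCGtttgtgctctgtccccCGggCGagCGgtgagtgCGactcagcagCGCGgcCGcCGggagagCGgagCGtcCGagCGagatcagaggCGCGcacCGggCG

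The longer stretch of Lhx1, a LIM homeobox gene of head and kidney formation, held 18 CpG in 153 bases and was listed in 3 lists: hairpin 133 at 24 h, and both hairpins at 0 h. The shorter one, the part of a peak that reaches into the window, held 5 CpG in 60 bases and was listed in all 4. That of Gsc2, a goosecoid-related gene, held 10 CpG in 96 bases and was listed in all 4. The stretches of Pax6, the eye and forebrain regulator, and Lhx6, a gene of cortical interneurons, held 11 CpG in 151 bases each and were listed with both hairpins at 24 h and in neither list at 0 h. That of Six6, an eye and pituitary gene, held 6 CpG in 116 bases and was listed with both hairpins at 0 h and in neither list at 24 h. That of Pax7, a muscle progenitor gene, held 3 CpG in 43 bases and was also listed with both hairpins at 0 h only. Promoter windows of Pax2, a kidney gene, and Nkx2-5, a heart gene, were listed with hairpin 14 at 24 h only. Promoter windows were thus listed at 24 h alone, at 0 h alone and at both times among these 8 genes. A window counted when a peak overlapped any part of it, so the start base itself need not lie under a peak, as at Six6.

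Promoter windows of the 57 genes were rich in CpG, with a median of 18 CpG in 300 bases (lower and upper quartile 13 and 28) against 7 in the 32851 windows of the whole table. Peaks overlapped 14.0% of the members' windows and 1.46% of the whole table's. Of 93 windows of other homeobox genes outside the Hox clusters, with a median of 17 CpG, peaks overlapped 2.15%. These differences were not tested. Among the members, the 8 windows under a peak had a median of 18.5, the 41 windows of genes with a peak elsewhere 17, and the 8 windows of genes without a peak 30. The motif TAATTA, a homeodomain core that reads the same on both strands, was in 8.77% of the members' windows and 5.29% of all windows, a description of letters only.

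**Figure D1:**
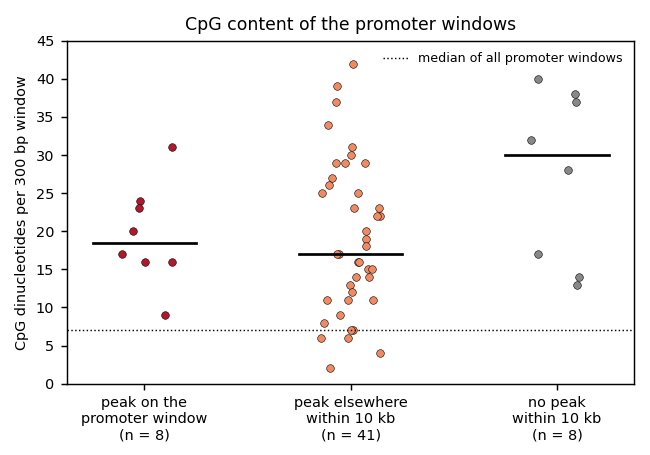
CpG dinucleotides in each 300 bp promoter window of the 57 genes (44 genes with a window), split by where the listed peaks lie; points are windows, bars are medians, and the dotted line is the median of 7 over all windows. Windows of genes without a peak have the highest median, 30 against 18.5 and 17.

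In number of genes, hairpin 133 and hairpin 14 each listed 31 of the 57 genes at 24 h, and 30 and 27 at 0 h. Over all protein-coding genes the shares listed were 10.5% and 9.72% at 24 h, and 12.7% and 11% at 0 h, and the members' shares (54.4% for either hairpin at 24 h, 52.6% and 47.4% at 0 h) were 5.18, 5.60, 4.14 and 4.29 times these. The members were short genes, with a median length of 7.56 kb against 17.2 kb over all genes. Among the 5551 genes within the members' length quartiles (5.18 to 16.5 kb) the listed shares were 8.14% and 7.37% at 24 h, and 9.04% and 7.44% at 0 h, a comparison added after the data were seen. Per length of DNA, the members' windows held 21.6 and 23.9 peaks per Mb at 24 h and 22.5 and 22.0 at 0 h, against 1.70 and 1.59, and 2.16 and 1.87, in windows of all genes. Windows of the Hox genes held 17.4 and 36.7 per Mb at 24 h and 21.3 and 25.1 at 0 h, so such a density was not particular to the 57 genes. Counting the gene body alone left 16 and 24 members at 24 h (7.19% and 6.78% of all genes), against 18 and 17 at 0 h (8.84% and 7.87%). Leaving out peaks that both hairpins listed at the very same coordinates left 18 and 17 members at 24 h (8.05% and 7.2% of all genes), against 13 and 12 at 0 h (9.9% and 8.09%). The assay selects for CpG density, and its part in the members' share was not tested.

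Other developmental genes gave values side by side. Of 111 further homeobox genes outside the Hox clusters, hairpin 133 listed 32 and hairpin 14 listed 31 at 24 h, against 32 and 25 at 0 h. Of 39 Hox genes, whose windows overlap within each cluster, 15 and 24 were listed at 24 h and 20 and 21 at 0 h. Of 80 Sox, T-box and forkhead genes, 15 and 21 were listed at 24 h and 24 and 18 at 0 h. As a share, the 57 genes were above the Hox genes with hairpin 133 and below them with hairpin 14, at both times. Differences between these groups were not tested, and the 57 genes were named with earlier results of these lists known.

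**Figure D2:**
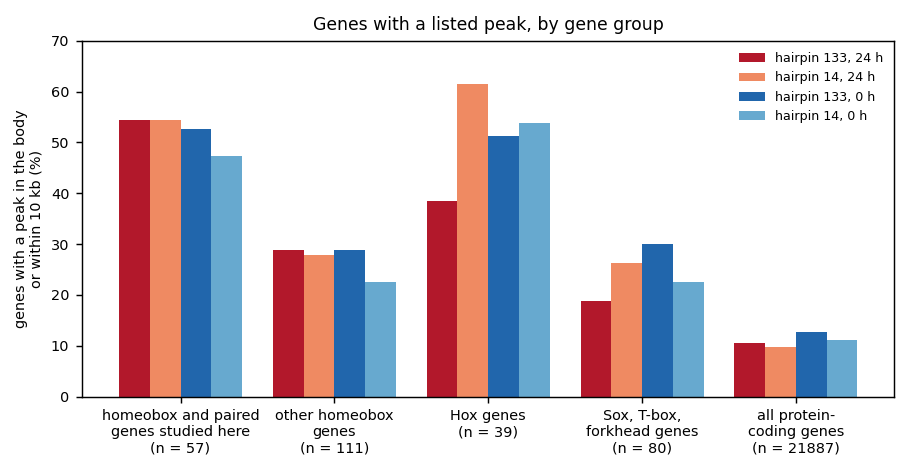
Percentage of genes with a peak in the body or within 10 kb in each of the 4 libraries, for the 57 genes and for 4 other groups. The 57 genes stand at 47.4% to 54.4%, all protein-coding genes at 9.72% to 12.7%.

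By number of lists, 17 members held a peak in every list (2.07% of all genes did), 7 in 3, 8 in 2 and 14 in 1. Of all 21887 protein-coding genes, 1389 were in exactly 2 lists and 14.9% in 1. The count over all genes in 3 lists is not given here. The 17 were Barhl2, Hmx2, Hmx3, En1, Gsc2, Otx1, Irx2, Irx5, Lhx1, Lhx2, Lhx8, Six3, Nkx2-1, Pax2, Pax3, Pax6 and Pax9. Lhx4, Lhx6, Lhx9, Dlx2, Pax7, Msx1 and Emx2 were in 3 lists. En2, Otx2, Lhx5, Six4, Six6, Nkx2-2, Nkx2-5 and Pax5 were in 2. Barhl1, Gsc, Pitx3, Irx4, Six2, Nkx2-3, Dlx1, Dlx3, Dlx4, Dlx5, Dlx6, Pax1, Pax8 and Msx2 were in 1. Irx1, Irx3, Irx6, Hmx1, Lhx3, Six5, Nkx6-1, Nkx6-2, Pax4, Pitx1 and Emx1 were in none.

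**Figure D3:**
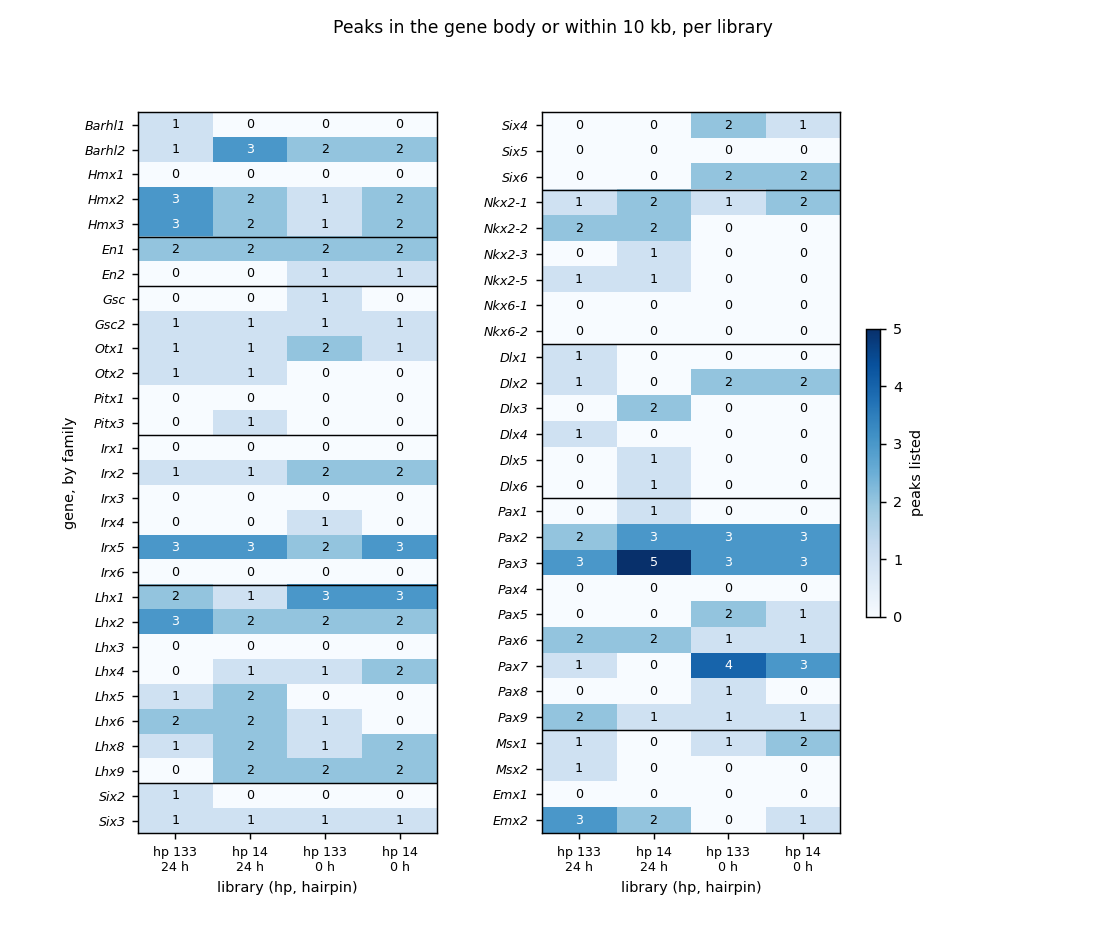
Number of peaks in the body or within 10 kb of each of the 57 genes, by library, with lines between families. Most rows are either filled across all libraries, filled in both libraries of 1 time, or filled in 1 library, and 11 are empty; Hmx2 and Hmx3 are neighbours and count the same peaks.

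Peaks at the members merged into 104 distinct regions, 1.03% of the 10085 in the series, and 15 of these regions were in all 4 lists, 6.30% of the 238 such regions. As a share of regions, 14.4% of those at the members were in all 4 lists (exact 95% interval 8.30 to 22.7%) against 2.23% of all other regions (1.95 to 2.54%), and 48.1% were in 1 list (38.2 to 58.1%) against 79.5% (78.7 to 80.3%). The intervals cover counting error only. A region in all 4 lists touched 15 members, 26.3% of them, against 1.28% of all genes. It touched 9 of the 39 Hox genes, 23.1%, and 25.6% of the Hox genes held a peak in every list against 29.8% of the members, so these shares were close to those of the Hox genes, and the differences were not tested.

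**Figure D4:**
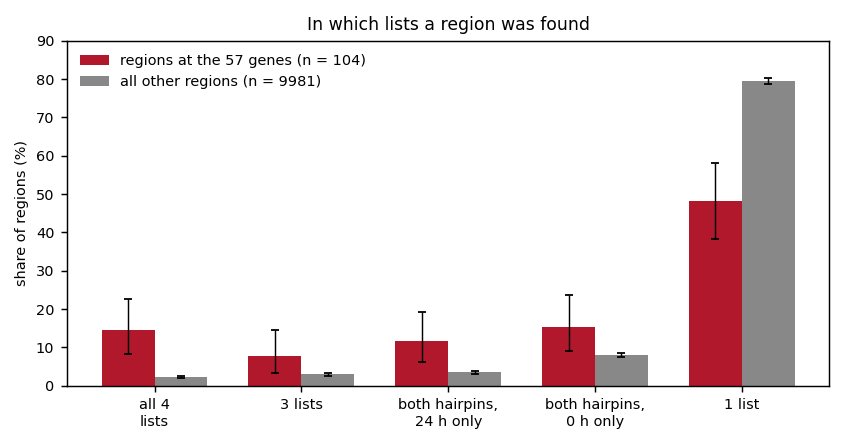
Share of regions found in all 4 lists, in 3, in both lists of 1 time only, or in 1 list, for the 104 regions at the 57 genes and the 9981 other regions; bars are percentages with exact 95% binomial intervals for counting error. Regions at the 57 genes are in all 4 lists in 14.4% of cases and in 1 list in 48.1%, against 2.23% and 79.5% elsewhere.

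The genes with a region in all 4 lists came from most families. En1, the midbrain and hindbrain patterning gene, held 2, in its body at chr1:120604965-120605128 and 5.6 kb beyond its end at chr1:120613541-120613707, and had 2 peaks in each list and no other. Hmx2 and Hmx3, neighbouring genes of the inner ear and hypothalamus, share 1 in the body of Hmx2 at chr7:131555498-131555649. Barhl2, a gene of retina and spinal cord, held its region 7.7 kb upstream of the start at chr5:106465816-106465967. Gsc2 had a single peak in every list, 34 bp past its start at chr16:17914913-17915073. Otx1, a forebrain gene, held one 7.0 kb outside its body at chr11:22008538-22008693, inside the body of another gene, Ehbp1. Irx2, of the Iroquois patterning family, held one 5.6 kb beyond its body at chr13:72639721-72639903.

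Among the LIM homeobox genes, which pair a homeodomain with protein-binding LIM domains, Lhx1 held a region in all 4 lists 70 bp past its start at chr11:84525383-84525544. Lhx2, a gene of forebrain and eye, held one in its body at chr2:38351823-38351977, and Lhx8, a gene of cholinergic neurons, held one 814 bp past its start at chr3:154329667-154329825. In the remaining families, Six3, a forebrain gene, had a single peak in every list at chr17:85607789-85607944, which lies over the noncoding gene Six3os1. Nkx2-1, the thyroid, lung and forebrain regulator, held one 2.8 kb from its 3′ end at chr12:56529045-56529210. Pax2 held one 5.3 kb upstream at chr19:44741236-44741388, Pax3, a neural crest and muscle gene, one at chr1:78201649-78201807 and Pax9, a tooth and pharyngeal pouch gene, one at chr12:56691457-56691614, 158 bp outside its annotated body. Irx5 and Pax6 were listed in every library without a region common to all 4.

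Of the 111 other homeobox genes, 5 held a region in all 4 lists, a share of 4.50%, below the 23.1% of the Hox genes. Among the 5 were Meis2, Nkx2-9 and Onecut1. Nkx2-9 neighbours Nkx2-1.

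At 24 h against 0 h, with hairpin 133, 21 members were listed at both times, 10 at 24 h only and 9 at 0 h only. Over all protein-coding genes these shares were 4.18%, 6.32% and 8.54%. With hairpin 14 the counts were 20, 11 and 7, and the shares over all genes 4.03%, 5.68% and 7.01%. Genes listed at 24 h only were thus fewer than those at 0 h only over all genes, and slightly more among the members, with either hairpin. With hairpin 133 the members' order depended on the settings. It reversed with a 1 kb window (18 listed at 24 h against 20 at 0 h) and the gene body alone (16 against 18). It also reversed with 1 member per locus and with the nearest gene (28 against 29 in each). It held with a 50 kb window (37 against 35) and without identical peaks (18 against 13). With hairpin 14 it held in each of these settings. Shares over all genes are given above for the gene body alone and without identical peaks, and not for the other settings. In the families given next both hairpins gave the same direction of difference in the number of listed genes, not always in the same genes. In the other families they did not. Over all protein-coding genes the shares listed were 10.5% and 9.72% at 24 h, against 12.7% and 11% at 0 h. The families given next hold 2 to 9 members each, and their differences were not tested. Among the 6 Nkx members, factors of ventral brain, heart, lung and pancreas, those listed numbered 3 (hairpin 133) and 4 (hairpin 14) at 24 h, against 1 and 1 at 0 h. A region in all 4 lists lay just beyond the 10 kb window of Nkx2-3, which counted only with hairpin 14 at 24 h. Further Nkx genes stand among the other homeobox genes. In the Dlx family, factors of limb, jaw and forebrain that sit in pairs, they numbered 3 and 3 of 6 at 24 h, against 1 and 1 at 0 h. No Dlx gene was listed by both hairpins at 24 h. Hairpin 133 listed Dlx1, Dlx2 and Dlx4, and hairpin 14 listed Dlx3, Dlx5 and Dlx6. Among Six2 to Six6, factors of eye, kidney and muscle, they numbered 2 and 1 of 5 at 24 h, against 3 and 3 at 0 h. In the Pax family they numbered 5 and 5 of 9 at 24 h, against 7 and 6 at 0 h. Of the 2 engrailed genes, 1 and 1 were listed at 24 h, against 2 and 2 at 0 h.

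All 8 members listed in exactly 2 libraries were listed with both hairpins at the same time, 4 at 24 h and 4 at 0 h. Among all 1389 protein-coding genes in exactly 2 lists, 780 (56.2%) showed that pattern. At 24 h only, Otx2, a head organiser gene, had 1 region with both hairpins at chr14:48655256-48655406, and Nkx2-2, a gene of ventral neural tube and pancreas, had 1 at chr2:147182854-147183004 plus 1 unshared peak in each list. Lhx5 had 1 and 2 peaks at 24 h with hairpins 133 and 14, and Nkx2-5 had 1 and 1, at different places with each hairpin. A shared region at 24 h with no peak at 0 h was found for 2 of 57 members against 0.868% of all genes. Where peaks anywhere in the window sufficed it was 4 of 57, against 1.28%, and the same count of members at 0 h alone was 4, against 2.28%.

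At 0 h only, En2, the paralogue of En1, had 1 region with both hairpins 6.4 kb outside its body at chr5:28159207-28159357. Six6 and Six4, which stand near each other on chromosome 12, had 2 and 2, and 2 and 1 peaks with hairpins 133 and 14, of which 1 region each was shared, at chr12:72939597-72939747 and chr12:73103834-73103984. Pax5, the B-cell factor and the member best known in blood, had 2 peaks with hairpin 133 and 1 with hairpin 14, sharing a region 2.5 kb upstream of its start at chr4:44713151-44713301. A shared region at 0 h with no peak at 24 h was found for these 4 of 57 members, against 1.66% of all genes. Pax7 came close to this pattern, with 1 and 0 peaks at 24 h against 4 and 3 at 0 h. Emx2, a cortical gene, had the opposite pattern, with 3 and 2 peaks at 24 h against 0 and 1 at 0 h. These 2 were chosen after their values were seen.

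Members listed in a single library were mostly those of 24 h, 11 of 14. With hairpin 133 at 24 h alone there were 5: Barhl1, a gene of cerebellum and inner ear, Six2, which keeps kidney progenitors undifferentiated, Dlx1, Dlx4 and Msx2, a gene of skull and limb. With hairpin 14 at 24 h alone there were 6: Pitx3, a lens and dopamine neuron gene, Nkx2-3, a gut and spleen gene, Dlx3, Dlx5, Dlx6 and Pax1, a gene of the vertebral column. With hairpin 133 at 0 h alone there were 3: Gsc, the organiser gene goosecoid, Irx4, a heart ventricle gene, and Pax8, a thyroid gene. With hairpin 14 at 0 h alone there were 0. Each had 1 peak except Dlx3, with 2. That of Barhl1 lay 5.1 kb outside its body, over another protein-coding gene, Ddx31. Of the 3253 protein-coding genes in 1 list, the shares of the 24 h lists were 25.6% and 20.6%, and of the 0 h lists 31.3% and 22.6%.

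The 7 members in 3 lists differed in which library lacked them. Lhx4, a pituitary gene, had 0 and 1 peaks at 24 h with hairpins 133 and 14, against 1 and 2 at 0 h. Lhx9, a gonad and brain gene, had 0 and 2 against 2 and 2, and Lhx6 had 2 and 2 against 1 and 0. Dlx2, which directs forebrain interneurons and jaw, had 1 and 0 peaks at 24 h against 2 and 2 at 0 h, and Msx1, a tooth and limb gene, had 1 and 0 against 1 and 2. For Dlx2, Msx1 and Pax7 the missing list was hairpin 14 at 24 h. Pax6, in every list, had 2 and 2 peaks at 24 h, both at the same places with each hairpin, and 1 and 1 at 0 h, at different places: that of hairpin 133 lay 7.1 kb upstream of the start over Pax6os1, and that of hairpin 14 overlapped a region of both 24 h lists.

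Between the hairpins, 30 of the members' peaks were shared at 24 h, 63.8% of 47 with hairpin 133 (exact 95% interval 48.5 to 77.3%) and 57.7% of 52 with hairpin 14. At 0 h 36 were shared, 73.5% of 49 with hairpin 133 (58.9 to 85.1%) and 75.0% of 48 with hairpin 14. Away from the members the shares of hairpin 133 peaks were 24.5% at 24 h and 30.4% at 0 h. Every one of the 30 and 36 shared peaks at the members had the same start and end in both lists, as had 661 of 715 and 922 of 1170 elsewhere. A shared region touched 21 members at 24 h (3.38% of all genes) and 24 at 0 h (4.61%). A control library common to both lists of a time may or may not have been used in peak calling; its part in the identical positions was not tested.

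Across times the positions at the members never coincided exactly, and elsewhere they seldom did. Of overlapping peaks elsewhere, 14 of 492 with hairpin 133 and 13 of 457 with hairpin 14 were identical at both times. Of the 104 regions, 26 were in lists of both times, none with the same start, and the starts differed by 8.5 bp in the median and by at most 81 bp, at Emx2. With hairpin 133, 18 of 47 peaks at 24 h overlapped a 0 h peak (38.3%), and with hairpin 14, 22 of 52 did (42.3%), against 16.9% and 17.5% elsewhere. Across both hairpin and time, 22 of 47 peaks of hairpin 133 at 24 h overlapped a peak of hairpin 14 at 0 h (46.8%). Of hairpin 14 at 24 h, 17 of 52 overlapped a peak of hairpin 133 at 0 h (32.7%). Elsewhere these shares were 15.5% and 17.8%.

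Several genes carried groups of neighbouring regions that differed between the times. Pax2 and Pax3 held the most, 6 distinct regions each, over 91.7 and 95.9 kb of gene body. Pax3 had 3 and 5 peaks at 24 h with hairpins 133 and 14 against 3 and 3 at 0 h, and Pax2 2 and 3 against 3 and 3. Irx5, a gene of heart and retina, held 5 regions in and near a body of 3.66 kb: at 24 h both hairpins listed 2 regions beyond the body at higher coordinates, chr8:92365801-92365951 and chr8:92366847-92366997, and at 0 h both listed another between them, chr8:92366508-92366658. Hmx2 had 3 and 2 peaks at 24 h against 1 and 2 at 0 h, of which chr7:131555967-131556117 was shared by the hairpins at 24 h and not listed at 0 h. Barhl2 had 1 and 3 peaks at 24 h against 2 and 2 at 0 h. Hmx2 and Barhl2 held 4 regions each, as did Hmx3, Lhx2, Lhx6 and Pax7. Lhx1, with 3 regions, had 2 and 1 against 3 and 3, and its 0 h lists both held a further region at chr11:84524372-84524522.

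**Figure D5:**
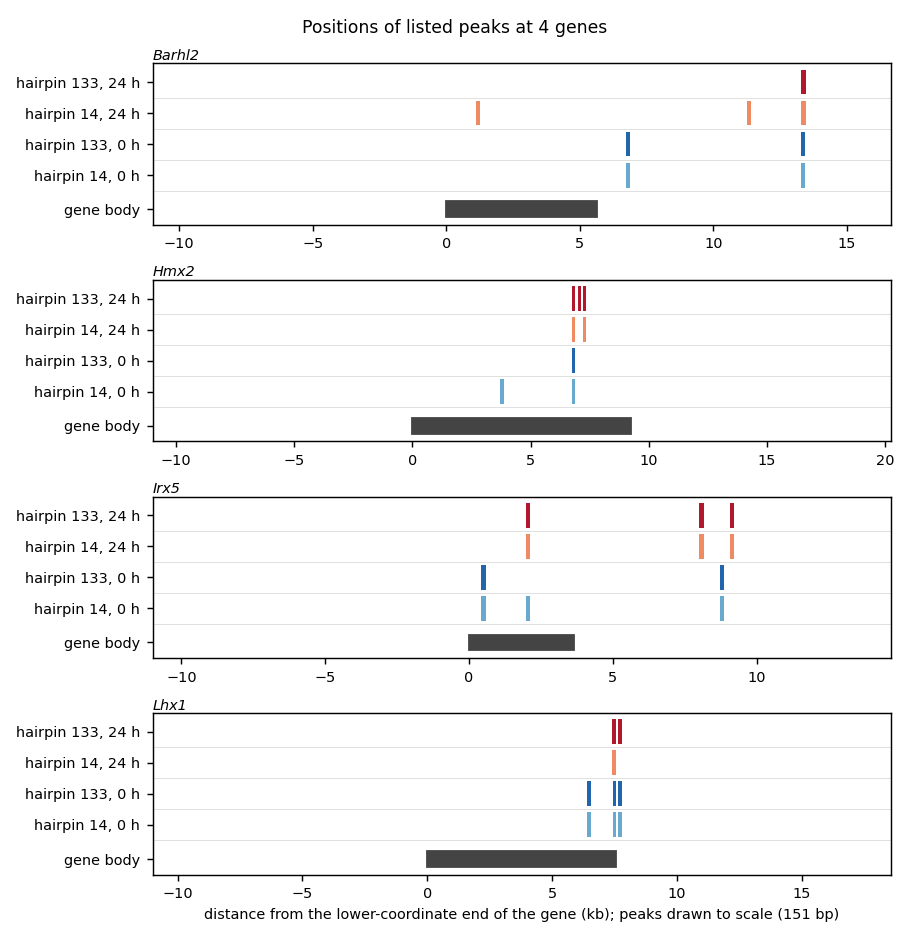
Peaks of each library along Barhl2, Hmx2, Irx5 and Lhx1, drawn to scale as boxes of 151 bp, with the gene body below; the x axis is the distance in kb from the gene end with the lower coordinate. At Irx5 the peaks of 24 h to the right of the body flank the single one of 0 h, while at Hmx2 1 region is in all 4 rows.

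Of the 104 regions, 61 were centred in a member's body and 43 in its flanks, and 22 lay over an annotated long noncoding gene. These included antisense or opposite-strand genes by name: Lhx1os, Six3os1, Pax6os1, Nkx2-2os, Dlx4os, Dlx6os1 and Dlx6os2. Flank regions of Otx1, Barhl1, Six4 and Pax9 lay over another protein-coding gene: Ehbp1, Ddx31, Mnat1 and Slc25a21, in that order. Exons and introns could not be told apart, because the gene table gives only bodies. Among 82 regions whose gene had a RefSeq start, 26 lay upstream and 56 downstream, and 18 were within 1 kb of a start. Within 1 kb of an end of any protein-coding gene lay 21.3% (hairpin 133) and 21.2% (hairpin 14) of the members' peaks at 24 h, against 22.4% and 20.8% at 0 h. For all other peaks the shares were 19.3% and 20.9% at 24 h and 13.6% and 14.4% at 0 h. In each list the exact 95% interval of the members' peaks overlapped that of the other peaks.

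The members lie on 15 chromosomes. Chromosome 2 has 10 of them, of which 9 held a peak, all but Lhx3. All 5 on chromosome 12 (Gsc, Six4, Six6, Nkx2-1 and Pax9), all 4 on chromosome 1, all 4 on chromosome 11 and all 4 on chromosome 19 held a peak. On chromosome 8, Irx5 held 5 regions while Irx3 and Irx6 of the same cluster held none, and on chromosome 13 Irx2 and Irx4 held peaks and Irx1 did not. The 11 members without a peak were 11.4 kb (Nkx6-2) to 211.1 kb (Hmx1) from the nearest peak of any list. At the edge of the 10 kb window, the peak of Emx2 with hairpin 133 at 24 h counted at 9969 bp from the gene. The region in all 4 lists counted for Hmx3 at 9471 bp. A peak of Gsc2 at 10238 bp and a region in all 4 lists at 10704 bp from Nkx2-1 did not count. Nor did a region in all 4 lists 11227 bp from Nkx2-3. For Dlx1, the region of hairpin 133 at 24 h and both hairpins at 0 h in the body of Dlx2 lay 11556 bp away. Counting these regions would list Nkx2-3 in every library and Dlx1 at 0 h as well.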

How the data were processed

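Per the labels, genomic DNA (3 ug, sonicated to about 150 bp) was bound to 60 ug MBD2-Fc, and what came off in 1 M NaCl was sequenced. Per the submitters' processing notes, BWA, Picard, SAMtools and HOMER and build mm10 were used, without versions or settings. The deposited lists hold coordinates only (other: no score or count), 151 bp per peak except 1 of 120 bp, and starts were read as 0-based.

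The 57 members and all lists were chosen with earlier results of these data known. Genes and promoter windows came from RefSeq tables (GRCm38.p6). Peaks overlapping by at least 1 bp were merged into regions. Genes described with regions were those in all 4 lists, those with both hairpins at 1 time only, and the 5 with most regions, ties in alphabetical order; Lhx1 is one of the genes in all 4 lists. Of 112 further homeobox symbols 111 matched. Some genes of the lists are not reported here by name. Intervals are exact (Clopper-Pearson, SciPy 1.17.1). Python 3.11.15 and pandas 2.3.3 were used, and overlap counting was tested on simulated data. The 8 peaks on unplaced contigs met no gene. Alternatives changed the window, peak assignment, overlap, locus counting and identical peaks.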

Additional observations from a re-analysis of the deposited data

Results flagged for a closer look

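With 1 library per group no sample can be called far from its group. Results that went opposite ways from 0 h to 24 h under the hairpins are given here, and none of these differences was tested. The number of peaks at the 57 genes was 47 at 24 h against 49 at 0 h with hairpin 133, and 52 against 48 with hairpin 14, so the changes differed by -6 (hairpin 133 minus hairpin 14). Lhx members with a peak numbered 5 at 24 h against 6 at 0 h with hairpin 133, and 7 against 5 with hairpin 14, a difference of -3. Msx and Emx members with a peak numbered 3 against 1 with hairpin 133 and 1 against 2 with hairpin 14, a difference of 3. Barhl2 had 1 peak against 2 with hairpin 133 and 3 against 2 with hairpin 14, a difference of -2.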

How the results depend on the processing

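A gene is listed or not in each library, and the times were paired gene by gene within each hairpin. No paired test was made, because there was 1 library for each hairpin and time. Pairs of counts are hairpin 133, then hairpin 14. The 10 kb windows gave 31 and 31 listed members (24 h) against 30 and 27 (0 h), 21 (24 h) and 24 (0 h) with a region shared by the hairpins, 15 with a region in all 4 lists, and 104 regions. These counts stayed within 1.5 times of themselves with a 50 kb window, assignment to the nearest gene, 1 member per locus (52 loci), an overlap of 50%, a peak anywhere in the window and merging within 500 bp, wherever each applied. With the gene body alone, 16 members were listed by hairpin 133 at 24 h, against 18 and 17 members at 0 h; 12 (24 h) and 13 (0 h) had a shared region, 6 had a region in all lists, and 62 regions were left. With a 1 kb window 18 and 26 members were listed at 24 h, against 20 and 20 at 0 h. There 7 members had a region in all lists and 67 regions were left. With hairpin 133 the order of the times also reversed with the nearest gene and with 1 member per locus, 28 at 24 h against 29 at 0 h. Shares over all genes are not given for the 1 kb and 50 kb windows, the nearest gene or 1 member per locus. Counts in those settings describe the members alone, and a 50 kb window takes in more DNA at every gene. Leaving out peaks that both hairpins listed at the very same coordinates gave 18 and 17 members (24 h) against 13 and 12 (0 h), in 61 regions. By the construction of that setting, 0 members then had a region shared at 24 h, 0 at 0 h and 0 in all lists. Read depth and peak strength, which would set how firmly a gene can be called listed, are unknown.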
